A study of Mus musculus with 1 sample.

Results

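Hexokinase, phosphofructokinase, pyruvate kinase and lactate dehydrogenase each exist as isoenzymes encoded by separate genes, and the mix of these genes was followed across the progenitors of mouse bone marrow. The 10 genes were chosen by symbol: Hk1, Hk2 and Hk3, Pfkl, Pfkm and Pfkp, Pkm and Pklr, and Ldha and Ldhb. All 10 were found, each on 1 row, among the 32285 genes of the count matrix. The data were 1 single-cell RNA-seq library, replicate 1 of the group of control Lin-cKit+ bone marrow cells, taken from femora and tibiae of C57BL/6 mice with Brd9fl/fl alleles, a genotype that the methods name without a Cre and set against Mx1-Cre;Brd9fl/fl mice. The Brd9-deleted library of the study is not analysed here. The mice had received 3 injections of pIpC at 20 mg/kg, an RNA mimic that induces interferon and that in the deleted group switches on Cre, and marrow was taken 8 weeks later. The series text places the injections 4 weeks after birth of primary mice, whereas the sample's labels describe a transplant of CD45.2(+) donor cells into CD45.1(+) CD45.2(-) recipients and place them 4 weeks after it, and which holds was not settled. Neither source says how many mice were pooled.

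Glycolysis turns glucose into pyruvate, and lactate dehydrogenase then reduces pyruvate to lactate. Hexokinase, phosphofructokinase and pyruvate kinase catalyze the steps that are practically irreversible, so the isoenzyme a cell uses sets how the pathway answers to its products and to hormones. Red cells have no mitochondria once mature and depend on glycolysis for ATP, and in humans inherited deficiency of the red cell pyruvate kinase causes hemolytic anemia. Hematopoietic stem cells are known for low mitochondrial activity and for their use of glycolysis.

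The filter of the study kept 7645 of 8817 barcodes (86.7%), with 1592 to 49991 unique molecular identifiers (UMIs) per cell and a median of 18696. The 10 genes together held 175805 of these UMIs (0.116%). Cells were assigned to a gate when at least 2 genes of a marker list had a UMI, the list reached 3 UMIs per 10000, and no other list did so. This gave 805 stem, 1272 erythroid, 156 neutrophil, 2132 monocyte, 399 megakaryocyte, 572 basophil/mast and 64 lymphoid cells. The dendritic gate held only 7 cells, and its levels are not described. A further 1208 cells met several lists and 1030 met none. None of the 10 isoenzyme genes is a gate marker. Of 3 check genes per gate that the gates did not use, all 3 were highest in their own gate for the stem, erythroid, neutrophil, megakaryocyte and basophil/mast gates, whereas it was 2 of 3 for the lymphoid gate and 1 of 3 for the monocyte gate, where Irf8 and Ctss were higher in the 7 dendritic cells. The neutrophil gate rested on Cebpe (343 UMI counts scaled to 1000000 UMIs of the gate, CPM) and Fcnb (167 CPM), with Camp at 25.9 CPM, Ngp at 5.04 CPM, Cd177 at 1.35 CPM and no UMI of Mmp8, and the primary granule gene Elane stood at 20136 CPM there. Median depth was 8763 UMIs in the stem gate, 18960 in the neutrophil gate, 21082 in the monocyte gate and 31761.5 in the erythroid gate, and 12 proliferation genes summed to 1145, 1498, 2318 and 3816 CPM in the same order. With 1 library there is no replicate, no test was run, and every interval is an exact 95% interval for counting error only.

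Windows from 250 bases before to 50 bases after a start site, from RefSeq on GRCm38.p6, are given for both pyruvate kinase and both lactate dehydrogenase genes, whose ratios differed most between erythroid and stem cells, and for Pfkm, which with Pklr was higher in erythroid cells. Capitals mark AGATAA or TTATCT, a form of the site of GATA factors, and ACGTG or CACGT, the core of the hypoxia response element, on either strand. CACGTG thus counts as both of the latter. Other forms of the GATA site were not marked. For genes with several windows, a window with a match is shown. The window not shown of Pklr, Pkm and Ldha held neither motif.
Pklr, chr3:89135892-89136191, plus strand: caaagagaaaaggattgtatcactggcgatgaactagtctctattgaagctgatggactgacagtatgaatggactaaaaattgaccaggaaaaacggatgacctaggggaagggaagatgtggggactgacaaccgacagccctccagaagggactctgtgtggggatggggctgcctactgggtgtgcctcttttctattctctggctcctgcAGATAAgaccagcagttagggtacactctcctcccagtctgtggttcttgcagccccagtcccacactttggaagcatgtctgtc
Pkm, chr9:59656977-59657276, plus strand: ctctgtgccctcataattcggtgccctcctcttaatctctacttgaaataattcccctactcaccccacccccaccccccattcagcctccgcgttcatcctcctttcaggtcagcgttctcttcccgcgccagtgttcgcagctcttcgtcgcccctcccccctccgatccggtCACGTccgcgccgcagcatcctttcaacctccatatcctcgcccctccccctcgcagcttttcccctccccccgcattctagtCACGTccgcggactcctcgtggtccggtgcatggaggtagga
Pfkm, chr15:98108221-98108520, plus strand: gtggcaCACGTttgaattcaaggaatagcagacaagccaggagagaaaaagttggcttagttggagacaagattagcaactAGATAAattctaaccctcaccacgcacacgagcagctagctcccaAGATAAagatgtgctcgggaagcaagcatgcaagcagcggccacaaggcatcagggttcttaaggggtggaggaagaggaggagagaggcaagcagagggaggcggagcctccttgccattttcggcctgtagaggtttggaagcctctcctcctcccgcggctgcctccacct
Ldha, chr7:46845554-46845853, plus strand: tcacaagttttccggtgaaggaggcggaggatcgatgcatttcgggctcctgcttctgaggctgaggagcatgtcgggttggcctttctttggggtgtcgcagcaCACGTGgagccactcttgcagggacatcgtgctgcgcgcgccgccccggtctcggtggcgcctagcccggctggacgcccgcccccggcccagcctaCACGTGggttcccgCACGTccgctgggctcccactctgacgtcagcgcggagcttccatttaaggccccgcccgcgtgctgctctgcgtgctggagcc
Ldhb, chr6:142507908-142508207, minus strand: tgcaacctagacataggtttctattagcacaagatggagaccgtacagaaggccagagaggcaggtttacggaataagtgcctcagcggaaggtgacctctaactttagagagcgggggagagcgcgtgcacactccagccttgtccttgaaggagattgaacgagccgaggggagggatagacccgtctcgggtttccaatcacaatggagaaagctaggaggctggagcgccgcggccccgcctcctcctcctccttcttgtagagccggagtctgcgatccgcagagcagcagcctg

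All 10 genes had windows in RefSeq, 17 in total, since Pfkm has 4 and Hk1, Pkm, Pklr and Ldha 2 each. The GATA letters stood in 4 of the 17 windows, 1 of Pklr and 3 of Pfkm, of which a pair overlap, and in 11.2% of all 32851 promoter windows. The hypoxia core stood in 7 of the 17, in Hk1, Hk2, Hk3, Pfkm, Pkm and Ldha, and in 19.6% of all windows. The Ldha window shown held 5 such matches, and the Ldhb window held neither motif. A match describes letters and not binding, and counts taken at the 3′ end do not tell which start site was used.

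Hexokinase phosphorylates glucose on entry into the cell. Hk1 (GRCm38 chr10:62268855-62379908) encodes the widely expressed form that binds mitochondria, Hk2 (chr6:82725025-82774454) the inducible form best known from muscle and fat, and Hk3 (chr13:55005985-55021385) a form found mainly in blood cells. The summed level of these genes hardly moved between the main gates, while the gene that supplied it changed. The sum was 150.3 CPM (142 to 159) in stem cells, 146 CPM (142 to 150) in erythroid cells, 150.3 CPM (137 to 165) in neutrophil progenitors and 157 CPM (154 to 161) in monocyte progenitors, and the ratios to the stem gate were 0.971 (0.912 to 1.03), 1.0 (0.895 to 1.12) and 1.05 (0.986 to 1.11), all with intervals that include 1.

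Hk1 supplied 60.2% of hexokinase UMIs in the stem gate (57.4 to 63.0), 96.2% in the erythroid gate (95.7 to 96.7), 20.6% in the neutrophil gate (16.9 to 24.6) and 24.4% in the monocyte gate (23.4 to 25.4). Its level was 90.6 CPM in stem cells, 140.4 CPM in erythroid cells, 30.9 CPM in neutrophil progenitors and 38.4 CPM in monocyte progenitors. Hk1 was thus highest in erythroid cells and low in neutrophil progenitors, which were not separable from the lymphoid gate at 27.6 CPM. The megakaryocyte gate, at 109 CPM and 87.2% of hexokinase UMIs, stood next to the erythroid gate.

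Hk2 was nearly absent from the erythroid gate, at 2.61 CPM (2.12 to 3.18), and stood at 41.6 CPM in stem cells, 35.3 CPM in neutrophil and 41.8 CPM in monocyte progenitors. Neighbors among the last 3 gates were not separable by counting error. The Hk2 to Hk1 ratio of UMIs was 0.459 in the stem gate and 0.0186 in the erythroid gate, a ratio over stem of 0.0405 (0.0316 to 0.0515). With thinned cells, with cells of several lists assigned, and among cells of like proliferation (a range of proliferation-gene UMIs that all gates hold, chosen after the data were seen) it was 0.0628, 0.0799 and 0.0765. In the other direction, the Hk2 to Hk1 ratio was 1.14 in the neutrophil gate and 1.09 in the monocyte gate, 2.48 (1.80 to 3.42) and 2.37 (2.05 to 2.75) times that of stem cells.

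Hk3 was highest in the neutrophil and monocyte gates, at 84.1 CPM (74.0 to 95.2) and 77.2 CPM (74.7 to 79.8), against 18.2 CPM (15.4 to 21.3) in stem cells and 2.90 CPM (2.39 to 3.50) in erythroid cells. The basophil/mast gate, at 68.3 CPM (63.1 to 73.8), was 3.76-fold above stem cells (3.14 to 4.53). Hk3 was the main hexokinase gene in neutrophil progenitors, with 55.9% of the family's UMIs, and in monocyte progenitors, with 49.0%, whereas it held 12.1% in stem cells. The monocyte gate also carried Elane at 3718 CPM and Mpo at 3833 CPM, and the part of shared progenitors in its Hk3 was not tested. The Hk3 to Hk1 ratio was 13.6 (9.96 to 18.5) and 10.02 (8.30 to 12.1) times that of the stem gate in the neutrophil and monocyte gates. In erythroid cells it was 0.103 times that of the stem gate (0.0788 to 0.135), a value that became 0.164 at a stricter gate threshold and 0.281 when cells of several lists were assigned.

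**Figure D1:**
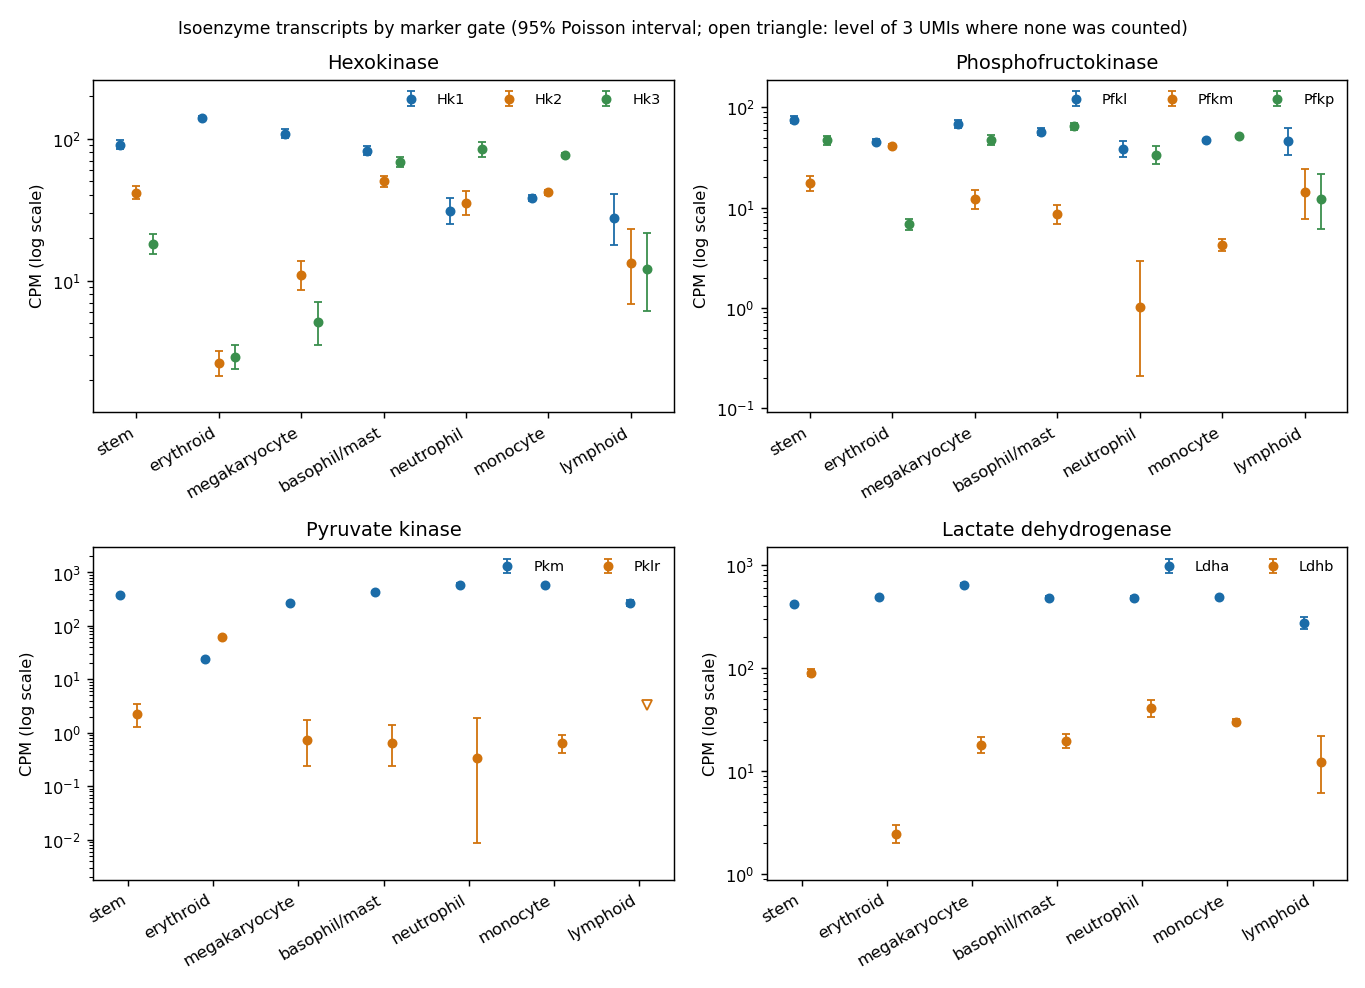
Level of each isoenzyme gene in 7 marker gates, in CPM on a log axis, 1 panel per enzyme; points are the summed UMIs of a gate as CPM and bars 95% Poisson intervals, and the open triangle is the level of 3 UMIs where no Pklr was counted. Pklr reaches 62.8 CPM in the erythroid gate and is at or below 2.21 CPM elsewhere, while Pkm, Ldhb and Hk2 are lowest in the erythroid gate.

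Phosphofructokinase commits sugar to glycolysis. Its subunits are the liver type Pfkl (chr10:77986947-78010083), the muscle type Pfkm (chr15:98092589-98132451) and the platelet type Pfkp (chr13:6579768-6648777), which assemble into mixed complexes, and red cells are known to hold the liver and muscle types. Here the liver type kept a near even share in the 4 main gates, while erythroid cells had more of the muscle and less of the platelet type than stem cells. Pfkl made up 54.0% of the family in the stem gate, 48.6% in the erythroid gate, 52.8% in the neutrophil gate and 45.7% in the monocyte gate.

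Pfkm was highest in erythroid cells, at 41.4 CPM (39.4 to 43.5), against 17.4 CPM (14.7 to 20.5) in stem cells. It was low in monocyte progenitors, at 4.23 CPM (3.65 to 4.87), and only 3 UMIs of it were counted in the neutrophil gate, a level of 1.01 CPM (0.208 to 2.95). The Pfkm to Pfkl ratio was therefore 0.908 in erythroid cells and 0.231 in stem cells, 3.94 times apart (3.23 to 4.82). In the monocyte gate the ratio was 0.392 times that of the stem gate (0.308 to 0.5001), and in the neutrophil gate 0.113 times (0.0227 to 0.348), where 3 UMIs carry the value and other gate settings gave 0 to 0.227. The Pfkm gene overlaps a further gene of the same strand in GENCODE M21, as does Pkm, so reads that fall in both could be lost from their counts.

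Pfkp was low in the erythroid gate, where Pfkm was high. It was at 46.9 CPM in stem cells, 33.6 CPM in neutrophil and 51.3 CPM in monocyte progenitors, and at 6.78 CPM (5.98 to 7.66) in erythroid cells. Its share of phosphofructokinase UMIs fell from 33.5% in the stem gate to 7.22% in the erythroid gate and was 45.9% and 50.2% in the neutrophil and monocyte gates. The Pfkp to Pfkl ratio in erythroid cells was 0.240 times that of stem cells (0.199 to 0.289), and 0.548 times (0.390 to 0.776) among cells of like proliferation. In monocyte progenitors it was 1.77 times (1.53 to 2.04). In neutrophil progenitors it was 1.40 times (1.03 to 1.91), and this did not hold at a fixed depth of 5000 UMIs, where the value was 0.947 (0.521 to 1.69), whereas among cells of like proliferation it was 2.33 (1.51 to 3.61). The family sum was 139.9 CPM in stem cells and 130.7 CPM in the basophil/mast gate, 0.934 times as high with an interval that includes 1 (0.861 to 1.01), and was 0.671 times the stem level in erythroid cells (0.627 to 0.718), 0.524 times in neutrophil progenitors (0.451 to 0.606) and 0.731 times in monocyte progenitors (0.685 to 0.780).

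Pyruvate kinase makes pyruvate and ATP at the end of the pathway. Pkm (chr9:59656368-59679375) gives the muscle and the widely expressed splice forms, which these counts cannot tell apart, and Pklr (chr3:89136142-89146784) the liver and red cell forms. This family showed the largest change of any ratio computed. Pkm was the only form in practice outside the erythroid gate, with 99.4% of the family's UMIs in stem cells and 99.9% in both the neutrophil and the monocyte gate, whereas Pklr held 72.6% (71.1 to 74.2) in the erythroid gate.

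Pklr was counted 2379 times in erythroid cells, 18 times in stem cells, 29 times in monocyte progenitors and 1 time in neutrophil progenitors. These are levels of 62.8 CPM (60.3 to 65.3), 2.21 CPM (1.31 to 3.49), 0.635 CPM (0.425 to 0.912) and 0.336 CPM (0.00851 to 1.87). The megakaryocyte gate, the closest to erythroid cells for Hk1, had 5 UMIs and 0.747 CPM. No Pklr UMI was counted in the lymphoid gate, where 3 UMIs would be 3.31 CPM and the upper limit of the interval is 4.07 CPM. Erythroid cells thus stood 28.4-fold above stem cells (17.9 to 48.0), the next gate in order.

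Pkm moved the other way. It was at 594 CPM in neutrophil, 572 CPM in monocyte and 375 CPM in stem cells, and at 23.6 CPM (22.1 to 25.2) in erythroid cells, 15.9-fold below stem cells (14.7 to 17.1). The fold was 10.4 with each cell weighted equally, 7.69 with cells of several lists assigned and 6.74 among cells of low proliferation. It was 18.8 without doublet calls and 18.6 at a gate threshold of 2 per 10000. The Pklr to Pkm ratio was 2.66 in the erythroid gate and 0.00589 in the stem gate, 451 times apart (282 to 766). With 18 stem-gate UMIs of Pklr behind it, this size is not precise: it was 220 with each cell weighted equally, 236 with cells of several lists assigned and 250 with thinned cells. Without doublet calls it was 550, and at a gate threshold of 2 per 10000 it was 543. The 16 erythroid cells that passed the limit on low proliferation held no Pklr UMI, a ratio with an upper limit of 61.8. The family sum was 4.37-fold lower in erythroid cells than in stem cells (4.16 to 4.59), at 86.4 against 377 CPM, and 1.58 (1.48 to 1.67) and 1.52 (1.46 to 1.57) times that of stem cells in neutrophil and monocyte progenitors. The gain of Pklr in the erythroid gate was therefore smaller than the loss of Pkm in counted molecules.

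Lactate dehydrogenase subunits join into enzymes of mixed composition, in which Ldha (chr7:46841475-46855627) favors the formation of lactate and Ldhb (chr6:142490249-142507957) its use. Ldha was the more abundant in all 7 gates, and Ldhb was highest in stem cells. Ldhb stood at 90.2 CPM (83.8 to 97.0) in stem cells, 40.7 CPM (33.8 to 48.6) in neutrophil progenitors, 30.2 CPM (28.7 to 31.9) in monocyte progenitors and 2.45 CPM (1.98 to 3.01) in erythroid cells. Its share of the family fell in the same order, from 17.8% (16.6 to 19.0) to 7.83%, 5.85% and 0.493% (0.398 to 0.604). The basophil/mast gate at 19.6 CPM, the megakaryocyte gate at 18.1 CPM and the lymphoid gate at 12.1 CPM lay between, and neighbors among these 3 were not separable.

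Ldha varied little by comparison, with 418 CPM in stem cells, 495 CPM in erythroid cells, 479 CPM in neutrophil and 487 CPM in monocyte progenitors. The highest level, 644 CPM, was in megakaryocyte progenitors and the lowest, 274 CPM, in the lymphoid gate. The Ldhb to Ldha ratio was 43.6-fold higher in stem cells than in erythroid cells (35.0 to 54.9), 2.54-fold higher than in neutrophil (2.07 to 3.14) and 3.48-fold higher than in monocyte progenitors (3.15 to 3.83). Expressed over stem cells these are 0.0229, 0.393 and 0.287. Among cells of like proliferation they were 0.0488 (0.0351 to 0.0674), 0.645 (0.486 to 0.854) and 0.454 (0.374 to 0.555), the same direction at smaller size. As for hexokinase, the family sum stayed level, at 508 CPM in stem cells and 0.980 (0.948 to 1.01), 1.02 (0.964 to 1.09) and 1.02 (0.986 to 1.05) times that in erythroid, neutrophil and monocyte cells.

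**Figure D2:**
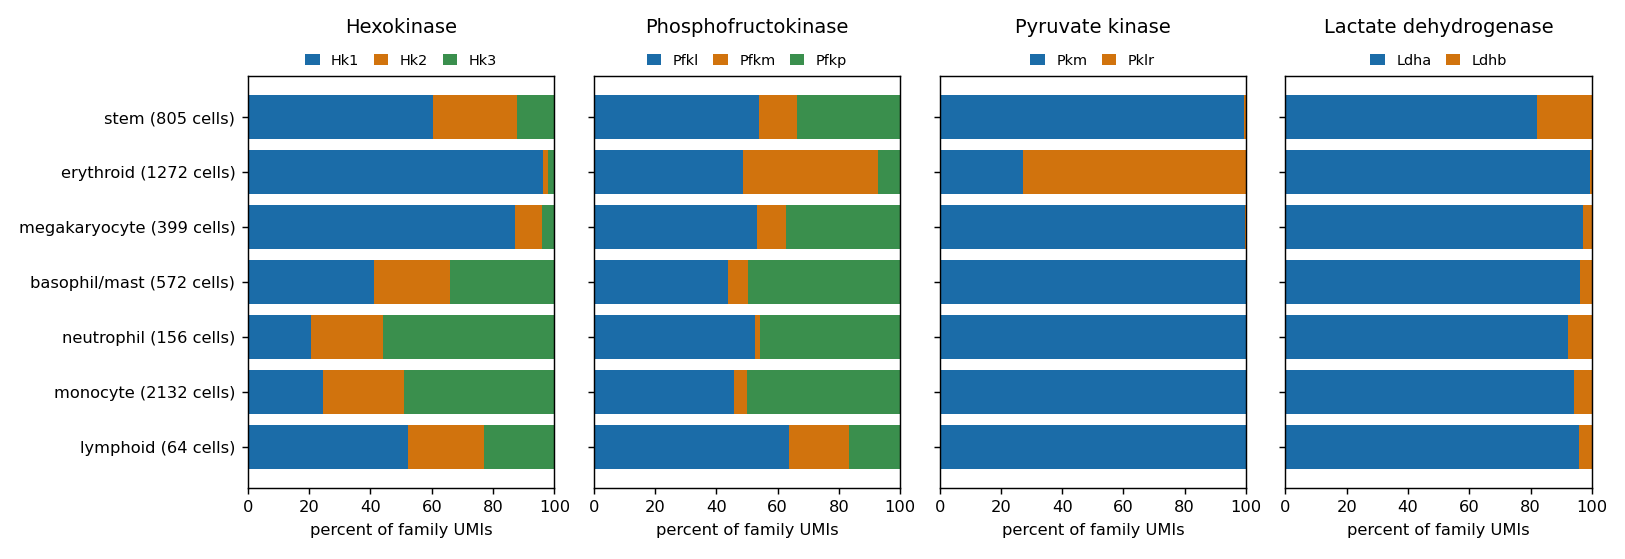
Share of each isoenzyme gene in the UMIs of its family, in percent, for 7 marker gates, with the number of cells in each gate. Hk1 fills 96.2% of the hexokinase bar in erythroid cells and 20.6% in neutrophil progenitors, Pklr appears as 72.6% of the pyruvate kinase bar in erythroid cells alone, and Ldhb takes its widest part, 17.8%, in stem cells.

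Taking all 10 genes against the stem gate, Pfkm and Pklr were at least 2-fold higher in erythroid cells, as were 11.5% of the 11520 genes with at least 50 UMIs in both gates together. Hk2, Hk3, Pfkp, Pkm and Ldhb were at least 2-fold lower, as were 32.9% of all genes tested, so 5 of 10 genes were lower and 3 of 10, Hk1, Pfkl and Ldha, lay between. In neutrophil progenitors 9 of the 10 had enough UMIs, all but Pklr. Hk3 was at least 2-fold higher there, as were 5.44% of 10355 genes, and Hk1, Pfkm and Ldhb were at least 2-fold lower, as were 42.6% of genes. Monocyte progenitors gave the same lists, 1 of 9 higher and 3 of 9 lower, against 8.86% and 27.6% of 11959 genes. The median ratio over all genes tested was below 1 in each comparison, at 0.785, 0.587 and 0.777 (log2 -0.35, -0.77 and -0.36), and that of the isoenzymes was 0.382, 0.717 and 1.01. Against this shift the Pfkl ratio of 0.512 (0.416 to 0.625) in the neutrophil gate had an interval that includes the median gene. The Pfkl ratios of 0.618 (0.565 to 0.677) in the monocyte gate and 0.604 (0.550 to 0.663) in the erythroid gate lay below it. The ratios between isoenzymes are free of this shift. All 18 ratios of ratios, 6 pairs of genes in 3 gates, had intervals without 1, with 8 above and 10 below the stem gate. The share for other pairs of genes was not computed, so this count is not particular to the isoenzymes. In the neutrophil gate, Pklr to Pkm and Pfkm to Pfkl rest on 1 and 3 UMIs of the numerator.

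**Figure D3:**
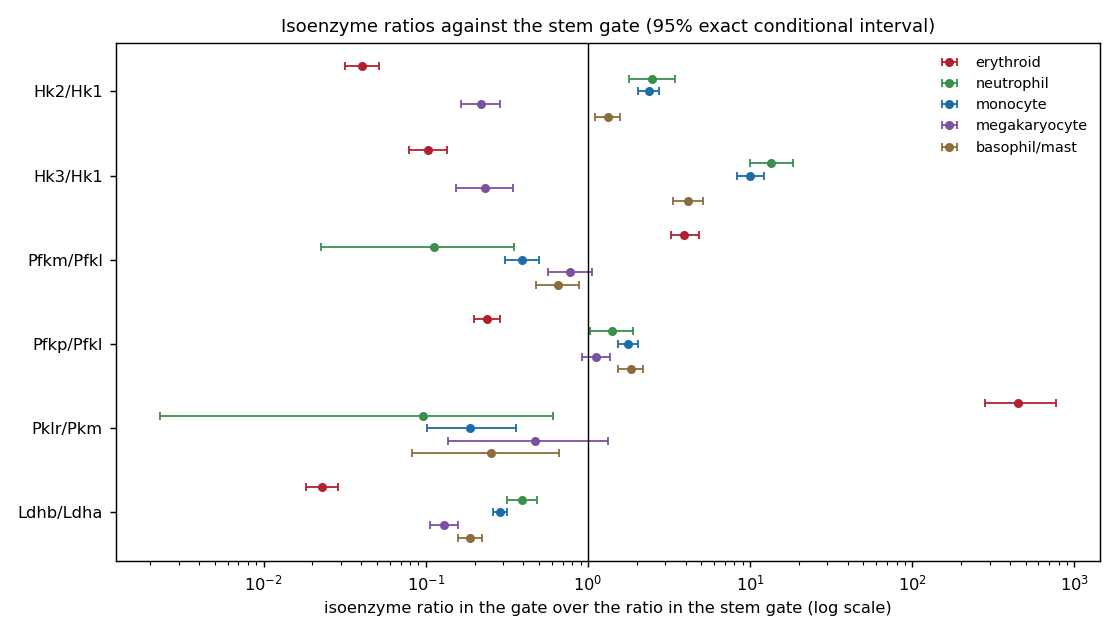
Ratio of 2 isoenzymes in a gate divided by the same ratio in the stem gate, on a log axis, for 6 pairs and 5 gates; bars are exact conditional 95% intervals and the line is at 1. The erythroid gate lies on the other side of 1 from the neutrophil and monocyte gates for 5 of the 6 pairs, and for Ldhb to Ldha all 5 gates lie below 1.

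Low levels in the erythroid gate were set beside genes of neutrophil granules, which erythroid cells are not known to make. Elane, Mpo, Prtn3 and Ctsg were counted there at 6.05%, 4.18%, 4.27% and 4.96% of their monocyte-gate level. Hk3 stood at 3.76% of its monocyte-gate level (3.08 to 4.54), Pkm at 4.13% (3.86 to 4.42), Hk2 at 6.25% (5.05 to 7.65), Ldhb at 8.11% (6.50 to 10.01) and Pfkp at 13.2% (11.6 to 15.05). The intervals of Hk3, Pkm and Hk2 thus overlapped the range of the granule genes, whereas those of Ldhb and Pfkp lay above it. RNA from other cells in the droplets was not tested as a part of these levels. Doublet calls made up 2.59% of erythroid cells, and without them all 18 ratios kept their direction and an interval without 1.

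The share of cells with a UMI showed whether these levels came from many cells. At 5000 UMIs per cell, Pklr was detected in 24.9% of erythroid cells (22.5 to 27.3), 1.26% of stem cells and 0.283% of monocyte progenitors, a gate that should lack it, and in 0 of 156 neutrophil progenitors (upper limit 2.34%). The thinning left out 9 erythroid, 12 stem and 9 monocyte cells. At full depth, which differs between gates, the shares were 69.8%, 2.24%, 1.31% and 0.641%. Pkm was detected at 5000 UMIs in 84.4% of stem cells, 93.6% of neutrophil progenitors and 12.0% of erythroid cells, against 28.4% of erythroid cells at full depth. At full depth 699 of 1272 erythroid cells (55.0%) held Pklr without Pkm, 172 (13.5%) Pkm without Pklr, 189 (14.9%) both and 212 (16.7%) neither. Whether part of these Pkm UMIs came from other cells was not tested.

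Ldhb was detected in 37.6% of stem cells at 5000 UMIs (34.2 to 41.1), 39 of 156 neutrophil progenitors, 10.7% of monocyte and 1.27% of erythroid cells, and at full depth in 59.4%, 51.9%, 36.6% and 5.58%. Nearly all of the stem cells with Ldhb at full depth, 456 of 478, also held Ldha. Hk3 was detected in 32.7% of neutrophil and 28.9% of monocyte progenitors at 5000 UMIs and in 1.19% of erythroid cells. Full depth gave 78.8%, 70.7% and 5.03%. At full depth 58 of 156 neutrophil progenitors held UMIs of both Hk1 and Hk3 and 65 held Hk3 without Hk1. The part of RNA from other cells in these counts was not tested.

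The erythroid gate was next ordered by the sum of Slc4a1, Hbb-bt and Hba-a1, genes of the red cell membrane and of hemoglobin that rise with maturation, and divided at its median. In the upper part the Pklr to Pkm ratio was 4.07 against 1.65 in the lower part, 2.46 times higher (2.10 to 2.89), with Pklr at 72.6 against 50.8 CPM and Pkm at 17.8 against 30.7 CPM. Pfkm rose along with it, from 35.6 to 46.2 CPM, and Pfkp fell from 12.4 to 2.21 CPM, so that the Pfkp to Pfkl ratio was 0.219 times that of the lower part (0.154 to 0.307). Ldha fell from 634 to 382 CPM and Hk1 from 172 to 115 CPM. Proliferation genes stood at 2480.2 CPM in the lower and 4909 CPM in the upper part.

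With the same order cut into 4 parts of 318 cells, a division made after the data were seen, the Pklr to Pkm ratio went through 0.979 (0.826 to 1.16), 2.43 (2.09 to 2.84), 3.56 (3.07 to 4.14) and 4.91 (4.09 to 5.93). The Pfkm to Pfkl ratio was 0.761, 0.665, 1.004 and 1.26, with overlapping intervals in the lowest pair of parts, and the Pfkp to Pfkl ratio 0.321, 0.196, 0.0710 and 0.0297. Pklr rose from 39.6 to 58.4 and 75.3 CPM and was then 69.5 CPM, with an interval that overlaps that of the part before, while Pkm went from 40.5 to 24.02, 21.2 and 14.2 CPM. Over the same parts Elane was at 253, 208, 264 and 179 CPM and Mpo at 195, 135, 189.6 and 129 CPM. RNA from other cells was not tested as a part of the Pkm levels. Ldha was at 622, 641, 472 and 282 CPM, and Hk1 at 174, 170.3, 124 and 104 CPM, so that the most mature part had the lowest level of both. Median depth in these parts was 19985.5, 33810.0, 36755 and 31065.5 UMIs, and its part in the result was not tested.

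**Figure D4:**
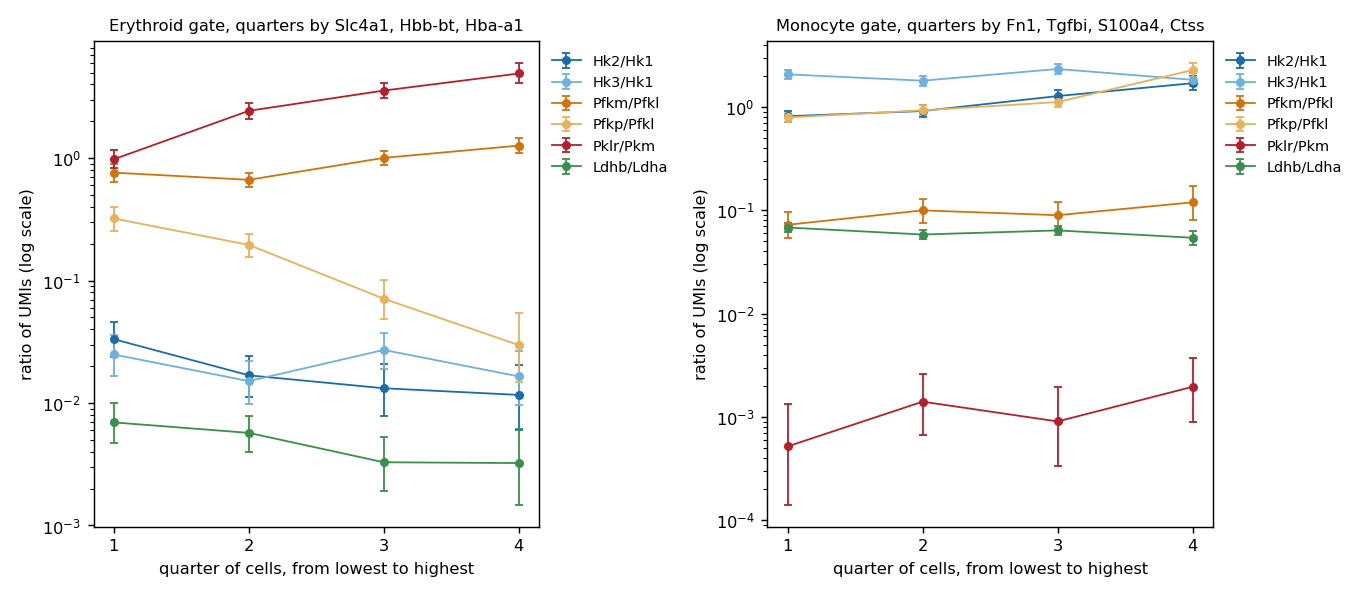
Ratios of UMIs between isoenzymes, on a log axis, in 4 parts of equal cell number of the erythroid gate (left, 318 cells each) and the monocyte gate (right, 533 cells each), ordered by the maturation genes named above each panel; bars are exact 95% intervals. Pklr to Pkm climbs from 0.979 to 4.91 and Pfkp to Pfkl falls from 0.321 to 0.0297 in erythroid cells, and Pfkp to Pfkl climbs from 0.792 to 2.28 in monocyte progenitors.

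Monocyte progenitors were ordered by Fn1, Tgfbi, S100a4 and Ctss, and ratios changed along that order too. The Hk2 to Hk1 ratio was 0.863 in the lower and 1.46 in the upper part, 1.69 times higher (1.48 to 1.93), and the Pfkp to Pfkl ratio 0.855 and 1.52, 1.77 times higher (1.57 to 2.002). The Pfkp to Pfkl and the Hk2 to Hk1 ratio thus moved in opposite directions along the erythroid and the monocyte order. In the upper erythroid part Hk2 to Hk1 was 0.532 times that of the lower part (0.333 to 0.830). In 4 parts of 533 cells the Pfkp to Pfkl ratio was 0.792, 0.929, 1.12 and 2.28, and Hk2 to Hk1 was 0.814, 0.914, 1.28 and 1.70. Hk3 fell in level from 91.9 CPM in the lowest to 56.8 CPM in the highest part, while its ratio to Hk1 was 2.07, 1.80, 2.34 and 1.83 and did not follow the order. Elane fell over these parts from 6167 to 1340.4 CPM. The neutrophil gate, divided by S100a8, S100a9, Ltf and Lcn2 into 78 and 78 cells, gave a difference beyond counting error for the Ldhb to Ldha ratio, 0.0693 in the lower and 0.105 in the upper part (1.51 times, 1.02 to 2.24), and for no other pair with an interval.

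Cells that met 2 lists were described apart. In the 87 cells that met the stem and the erythroid list, of which 7 were doublet calls, the Pklr to Pkm ratio was 0.368 (0.276 to 0.487), against 0.00589 in the stem and 2.66 in the erythroid gate. The Ldhb to Ldha ratio there was 0.110 (0.0821 to 0.145), and Hk2 to Hk1 was 0.129 (0.0767 to 0.206), also between the gates. Pfkm to Pfkl, at 0.829 (0.575 to 1.19), and Hk3 to Hk1, at 0.0387 (0.0140 to 0.0862), were within counting error of the erythroid values of 0.908 and 0.0207. In the 100 cells that met the erythroid and the megakaryocyte list, 6 of them doublet calls, the Pklr to Pkm ratio was only 0.0514 (0.0306 to 0.0813), and the Hk3 to Hk1 ratio, at 0.104 (0.0614 to 0.168), stood above that of both gates. The latter rests on 19 UMIs of Hk3. These 100 cells also held Elane at 756 CPM and Mpo at 596 CPM, against 225 and 160 CPM in the erythroid gate. The part of myeloid RNA in their Hk3 was not tested. The 337 cells that met the stem and the megakaryocyte list held no doublet call, and their Ldhb to Ldha ratio of 0.0880 (0.0767 to 0.101) lay between 0.216 in the stem and 0.0281 in the megakaryocyte gate. The 126 cells of the erythroid and monocyte lists held 43 doublet calls (34.1%) and are not described further.

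Of the remaining gates, megakaryocyte progenitors lay on the same side of stem cells as erythroid cells for the hexokinase and lactate dehydrogenase pairs. Their Hk2 to Hk1 ratio was 0.219 times that of stem cells (0.164 to 0.289) their Hk3 to Hk1 ratio 0.233 times (0.154 to 0.346) and their Ldhb to Ldha ratio 0.130 times (0.106 to 0.159), whereas Pfkm to Pfkl, at 0.774 (0.566 to 1.05), Pfkp to Pfkl, at 1.13 (0.925 to 1.37), and Pklr to Pkm, at 0.475 (0.138 to 1.33), had intervals that include 1. Pfkp, named for platelets, stood at 47.4 CPM there, against 46.9 CPM in stem cells. The basophil/mast gate had the highest hexokinase sum, 201 CPM, with Hk1, Hk2 and Hk3 at 41.0%, 24.9% and 34.1%, and the highest Pfkp of the 7 gates, 65.0 CPM. That gate also carried Elane at 2563 CPM and Mpo at 4008 CPM, and the part of neutrophil or shared progenitors in these values was not tested. Lymphoid cells were few and had the lowest hexokinase sum, 53.0 CPM (39.1 to 70.3), and the lowest Ldha.

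The pathway around the isoenzymes was described with 31 further genes. They cover glucose and lactate transport, the shared steps, the control of phosphofructokinase and the entry of pyruvate into mitochondria. Also among them are 3 splicing factors of Pkm and 2 other isoenzyme genes. In erythroid cells 3 of 26 genes with enough UMIs were at least 2-fold higher than in stem cells and 5 lower, in neutrophil progenitors 8 and 5 of 25, and in monocyte progenitors 5 and 5 of 27, to be read against the shares of all genes given above. Their median ratios were 0.940, 1.30 and 1.22. Of the 10 genes of shared steps, 9 could be compared, and 5 were higher in neutrophil progenitors, 3 in monocyte progenitors and 1 in erythroid cells. In the same order, 1, 1 and 2 were lower.

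Of 7 gates, stem cells had the highest level of both Slc2a3 and Slc2a1. Slc2a3, a high-affinity glucose transporter, was at 66.6 CPM in stem cells, 14.8 CPM in erythroid cells, 2.02 CPM in neutrophil and 3.85 CPM in monocyte progenitors, with the megakaryocyte gate at 38.0 CPM next to stem cells. Slc2a1, the transporter of most cells and of human red cells, was at 14.7, 0.501, 4.37 and 5.30 CPM, and at 9.93 CPM in the lymphoid gate. Slc16a1, which carries lactate and pyruvate across the membrane, was instead 4.79-fold higher in erythroid cells (4.08 to 5.66), at 92.3 against 19.3 CPM, and 2.81-fold higher among cells of like proliferation (2.15 to 3.76).

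Among the shared steps, Aldoc, an aldolase best known from brain, was at 13.3 CPM in stem cells, 0.343 CPM in erythroid and 0.745 CPM in monocyte cells, and no UMI of it was counted in neutrophil progenitors, where 3 UMIs would be 1.01 CPM. Pgam1, which rearranges phosphoglycerate upstream of pyruvate kinase, followed Pkm, with 155 CPM in stem cells, 42.1 CPM in erythroid cells, 597 CPM in neutrophil and 634 CPM in monocyte progenitors. Gpi1, Gapdh, Eno1 and Aldoa were 3.22, 2.64, 3.21 and 2.07-fold higher in neutrophil progenitors than in stem cells, and were chosen for mention after their values were seen. Reads of Gapdh, Aldoa, Ldha and Pkm can be shared with their processed pseudogenes, so their levels are less certain than those of Pklr or Ldhb.

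Of the genes that set fructose bisphosphate and pyruvate use, Pfkfb3, which makes the activator of phosphofructokinase, was 6.62-fold lower in erythroid cells than in stem cells (4.91 to 8.96), 4.06-fold among cells of like proliferation and 4.18-fold with each cell weighted equally. Tigar, which removes that activator, was at 0.264 CPM there against 2.95 CPM in stem cells, with few UMIs in either gate, and 3.99-fold higher in monocyte progenitors (2.65 to 6.29). Pfkfb2 was represented by 1 UMI in neutrophil progenitors. Pdk2, an inhibitor of pyruvate dehydrogenase, was lower in neutrophil and monocyte progenitors, at 1.01 and 1.66 CPM against 7.73 CPM in stem cells. Mpc1, a subunit of the mitochondrial pyruvate carrier, was 4.304-fold higher in neutrophil progenitors (3.93 to 4.72) and 2.05-fold higher in both erythroid cells and monocyte progenitors. The factors that choose the splice form of Pkm, Ptbp1, Hnrnpa1 and Hnrnpa2b1, were within 2-fold of stem cells in all 3 gates.

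**Figure D5:**
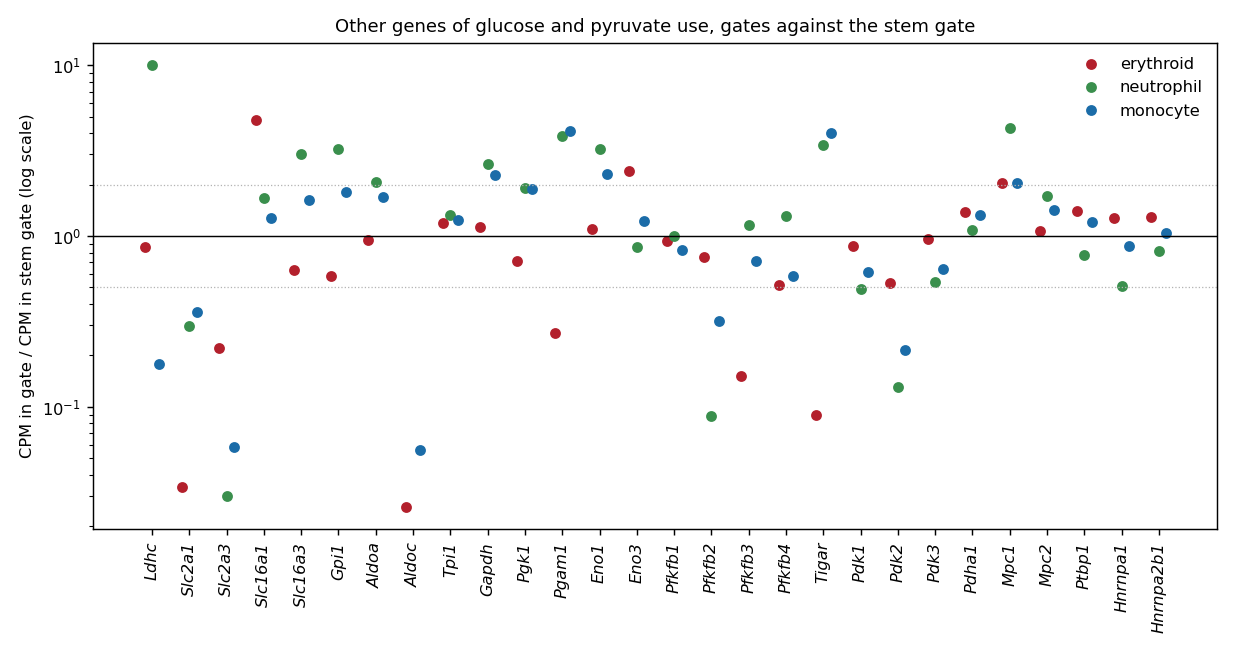
Level of 28 pathway genes in the erythroid, neutrophil and monocyte gates divided by that in the stem gate, on a log axis, with dotted lines at 2-fold; Aldoc has no point for the neutrophil gate because no UMI was counted there. Slc2a1, Slc2a3 and Aldoc lie below 1 in each gate shown, Slc16a1 is at 4.79 in erythroid cells, and Pgam1 is at 0.272 in erythroid cells and 4.09 in monocyte progenitors.

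Isoenzymes outside the 10 genes were looked at as well. No UMI of Hkdc1, a further hexokinase gene, was counted. Ldhc, known as the testis form of lactate dehydrogenase, had 394 UMIs, with a level of 26.1 CPM in the basophil/mast gate, where Ldhb was at 19.6 CPM, 7.40 CPM in neutrophil progenitors and 0.736 CPM in stem cells. Eno2, the neuronal enolase, had 24 UMIs and a level of 2.21 CPM in stem cells, with none in the erythroid or neutrophil gate. Pdk4 had 5 UMIs in all.

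The genes whose levels ran most like those of an isoenzyme were sought among 9526 genes over 8 gates, the dendritic gate included, by Pearson correlation of log2(CPM + 1), as a description of gates from 1 library that share their depth and free RNA. Pklr ran most like Pdia2 (r = 0.993) and Prss50 (r = 0.991), at 19.7 and 42.4 CPM in erythroid cells and 0.736 and 1.10 CPM in stem cells. Hk3 ran most like Fndc3b (r = 0.981) and Pgam1 (r = 0.954), and Hk1 like Sdsl (r = 0.945) and Epb41 (r = 0.945), a gene of the red cell skeleton. Pkm ran most like Rab27a (r = 0.985) and Msra (r = 0.971), and Ldhb like Pgap2 (r = 0.947) and Fbxo22 (r = 0.926). Without the small dendritic gate Pdia2, Fndc3b and Rab27a stayed among the nearest genes of Pklr, Hk3 and Pkm, while both genes nearest to Hk1 and both nearest to Ldhb were replaced by others.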

How the data were processed

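The deposited matrix holds raw UMI counts per gene and barcode, which the authors made with Cell Ranger 6.0.2 on mm10 from a 3′ single-cell library. The sample's extraction label describes a bulk RNA kit, whereas the methods and the matrix are single-cell. As in the methods, barcodes with more than 1000 UMIs and genes, under 50000 UMIs and 6500 genes, and a mitochondrial share under 7% were kept. Counts were summed per marker gate and given as CPM of all UMIs of the gate, with exact Poisson intervals, and ratios with exact conditional intervals. On simulated data for the erythroid gate over the stem gate, across 11520 genes, the intervals held the simulated fold for 95.5% of genes. Those counts were drawn as Poisson counts without variation between cells. The result therefore checks the computation and not whether the intervals cover the spread between cells. UMIs were not divided by length, and capture per gene is not calibrated, so ratios are compared between gates and not read as molar amounts. Aldoa stands on 2 rows, which were summed. Some genes of the lists are not reported here and were left out of the sums.

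Pathway genes were named when they had at least 50 UMIs in the 4 main gates and differed at least 2-fold from the stem gate, at most 6 per gate by size, with list members at 0, and for each isoenzyme the 2 genes with the highest correlation. Members, lists and gates were chosen with earlier results of these data known. Doublets, called with Scrublet in scanpy 1.11.5 (268 cells, 3.51%), were kept and removed in an alternative. The alternatives were other gate thresholds and marker numbers, other cell filters, cells with few proliferation UMIs, cells thinned to 5000 UMIs, equal weight per cell, another denominator, and 3 chosen after the data were seen: cells of several lists assigned to their highest list, another neutrophil list, and cells of like proliferation. Python 3.11.15, numpy 2.4.6, scipy 1.17.1 and pandas 2.3.3 were used.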

Additional observations from a re-analysis of the deposited data

How the results depend on the processing

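With 1 library no replicate was left out, and intervals do not cover differences between mice. No paired analysis was possible because the data are a single library. Of 198 ratios over the stem gate recomputed under the alternatives, 3 turned direction, 12 kept it with an interval that includes 1 and 5, with each cell weighted equally, kept it outside the interval first computed, and of 186 without the cells of low proliferation 1, 7 and 5 did. Of 576 levels, 9 that had differed from the stem gate turned direction.

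With each cell weighted equally, the erythroid ratios over stem were 0.0526 for Hk2 to Hk1, 0.137 for Hk3 to Hk1, 0.302 for Pfkp to Pfkl and 219.6 for Pklr to Pkm, and the monocyte Ldhb to Ldha ratio was 0.251; the cause was not tested. In neutrophil progenitors Pfkp to Pfkl was 1.32 at a gate threshold of 5, 1.14 with at least 3 markers and, turned, 0.947 in thinned cells. Pklr to Pkm there, with 1 UMI of Pklr, was 0.466, 0.911 and 0 under the same settings and 0.195 in cells of like proliferation, and its level ratio with 3 markers was 1.43. The monocyte Pklr to Pkm ratio in cells of like proliferation was 0.204.

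Cells of low proliferation left 16 erythroid, 23 monocyte, 154 stem and 0 neutrophil cells, the fewest of any setting except for the stem gate. There the monocyte ratios were 3.73 for Hk2 to Hk1, 4.81 for Hk3 to Hk1, 0 for Pfkm to Pfkl and, turned, 1.91 for Pklr to Pkm, with 6.77 (2.56 to 20.8) for Pfkp to Pfkl and 0.108 (0.0126 to 0.418) for Ldhb to Ldha, and the erythroid ratios 0.458 for Hk3 to Hk1, 0.70 for Pfkp to Pfkl, 0 for Hk2 to Hk1 and Ldhb to Ldha (upper limits 0.375 and 0.255) and, turned, 0 for Pklr to Pkm. Levels over stem that turned were 0.907 for Hk3, 0.516 for Pkm, 0.764 for Ldha and 0 for Tigar in monocyte cells, and 0 for Pklr, 0.961 for Ldha, 1.49 for Pfkfb3 and 0.747 for Slc16a1 in erythroid cells. The interval of Pkm in monocyte cells, 0.358 to 0.723, did not include 1, and the cause was not tested.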
